A study of Mus musculus with 31 samples.

Results

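The miR-135 family of the mouse consists of miR-135a, made from the hairpins Mir135a-1 and Mir135a-2, and miR-135b, made from the hairpin Mir135b. Its members were taken as every entry of the deposited count tables for an arm of miR-135a or miR-135b. There were 5 such entries among 1966 mature microRNAs: mmu-miR-135a-5p, mmu-miR-135b-5p, mmu-miR-135a-2-3p, mmu-miR-135a-1-3p and mmu-miR-135b-3p, named from here on without the species prefix. Small RNA libraries had been made from 31 right hippocampi of C57Bl/6 J mice that lacked the serotonin transporter (5-HTT KO, here KO) or were wild type (WT). The mice had been exercised, given corticosterone, the main stress hormone of rodents, or kept with water, and the design text gives 4 weeks for the treatments. The 6 groups held 5 KO-exercise, 2 KO-corticosterone and 6 KO-water libraries, and 5 WT-exercise, 6 WT-corticosterone and 7 WT-water libraries. The design asks how hippocampal microRNAs respond to each treatment and whether the response depends on the transporter. Age, sex and corticosterone dose are not given in the labels used here, and the transporter mRNA is not a measured feature, so the genotype labels were not checked against the counts.

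A microRNA hairpin is cut into a duplex, and one arm, the guide, is usually kept in the silencing complex while the other, the passenger, is mostly degraded. The guide finds target mRNAs by pairing of its seed, the bases near its 5′ end, with sites that lie mostly in 3′ untranslated regions (3′UTRs). In mouse serotonin neurons of the raphe, miR-135a is known to repress the serotonin transporter, which takes serotonin back up, and the autoreceptor Htr1a, which restrains serotonin release. Raphe neurons send serotonin axons to the hippocampus, where Htr1a is also made by the local neurons.

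The mature sequences below show the seeds of the arms that were matched to a reference. They are from RefSeq, GRCm38.p6, read 5′ to 3′, with seed bases 2 to 8 in capitals, and 4 of the 5 entries were matched there. MiR-135b-5p was the entry not matched, so its seed is not shown or compared.
miR-135a-5p: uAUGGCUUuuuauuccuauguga
miR-135a-2-3p: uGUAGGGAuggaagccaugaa
miR-135a-1-3p: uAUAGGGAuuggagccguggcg
miR-135b-3p: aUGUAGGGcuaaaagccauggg

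The 5p arm of miR-135a lies at chr9:106154140-106154162 on the plus strand in Mir135a-1 and at chr10:92072141-92072163 on the minus strand in Mir135a-2. The letters are the same at both loci, so the single miR-135a-5p entry cannot be divided between the hairpins. The 3p arms differ, so each can be assigned to its own hairpin. MiR-135a-1-3p lies at chr9:106154179-106154200 (plus), miR-135a-2-3p at chr10:92072104-92072124 (minus) and miR-135b-3p at chr1:132198142-132198163 (plus). No pair of the 3 passenger arms had the same seed. The hairpins of miR-135a are given here because they show this arrangement, with both mature arms in capitals.
Mir135a-1: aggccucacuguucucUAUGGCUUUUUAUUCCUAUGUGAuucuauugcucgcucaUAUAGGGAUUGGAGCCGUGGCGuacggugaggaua
Mir135a-2: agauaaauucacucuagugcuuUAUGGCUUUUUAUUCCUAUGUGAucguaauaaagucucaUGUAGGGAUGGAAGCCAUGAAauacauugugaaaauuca

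In the GENCODE annotation of GRCm38, Mir135a-1 lay within the antisense RNA gene D030055H07Rik on the same strand, opposite an exon of Glyctk, which encodes glycerate kinase. Mir135a-2 lay within the long non-coding RNA gene Rmst on the same strand, outside every annotated Rmst exon, and Mir135b lay in an intron of Lemd1. The DNA letters that pair with the seed of miR-135a-5p, AAGCCAT, were searched on the sense strand of annotated 3′UTRs, which puts the known serotonin targets beside the arms measured. They occurred in 2729 of 21028 genes (13.0%). The 3′UTR of Htr1a held 1 match, starting at base 1880 of 2603, shown with its flanks and the match in capitals (chr13:105447384-105447413, plus strand).
Htr1a: ctgccctgccacatgAAGCCATtgttttta
Of genes whose 3′UTR was within 10% of that length, 22.0% held a match. The 3′UTR of Slc6a4, the transporter gene, was 663 bases long and did not hold these letters, as was the case for most 3′UTRs near its length, of which 5.7% held them. A match of letters is a description and not a measured site, and its absence from an annotated 3′UTR says nothing of regulation by miR-135a.

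Total counts ranged from 1011285 to 4052174 per library, and KO-exercise held the shallowest library and WT-water the deepest. WT-water libraries held 1639753 to 4052174 counts, against 1411350 to 2279300 in WT-exercise and 1564411 to 2409803 in WT-corticosterone. The neuronal microRNAs miR-124-3p, miR-9-5p, miR-128-3p, miR-138-5p, miR-218-5p and miR-137-3p together held 337300 to 462200 counts per 1000000 counts (CPM) in each library. Hindbrain microRNAs of the miR-10 and miR-196 families together held 2.32 to 35.4 CPM. The KO-water libraries came in 2 sets: replicates 3, 4 and 6 are columns of the deposited table of KO-water and WT-water, and replicates 1, 2 and 5 are not. A further knockout column of that table is a KO-exercise library by the labels and was used as such. All 6 KO-water libraries were used here, and the tests of the guide arms against KO-water are also given for both sets of 3. Sample codes begin with G or H, with no stated meaning, and this letter was treated as a possible batch. The labels call the libraries biological replicates, so each was taken as 1 animal, and its values describe a whole hippocampus, in which fewer cells of a type and less RNA per cell cannot be told apart.

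Within the miR-135 family, miR-135a-5p held most of the counts. It held 129930 counts over the 31 libraries and averaged 2039 CPM, rank 64 of the 1966 entries, 120 times below miR-124-3p, the most abundant microRNA at 244550 CPM. MiR-135b-5p held 12819 counts and averaged 198 CPM, rank 191. The passenger arms were far lower. MiR-135a-2-3p averaged 15.5 CPM from 1081 counts, miR-135a-1-3p averaged 1.04 CPM from 65 counts and miR-135b-3p averaged 0.948 CPM from 60 counts.

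The 3p arms tell the miR-135a hairpins apart, and nearly all of their counts came from Mir135a-2, the hairpin in Rmst. MiR-135a-2-3p made up 94.3% of the 3p counts of both hairpins (exact Clopper-Pearson 95% interval 92.8% to 95.6%, counting error only), 16.6 times the count of miR-135a-1-3p. That share pools groups: it was 85.3% in WT-corticosterone (79.1% to 90.3%), which holds 25 of the 65 miR-135a-1-3p counts, and 93.6% to 97.5% in the other 5 groups. MiR-135a-2-3p was counted in all 31 libraries, with 14 to 85 counts in each. MiR-135a-1-3p was counted in 23 libraries with at most 8 counts in any, and miR-135b-3p in 23 with at most 6. Neither of these sparse arms passed the filter on low counts in any comparison, so they have counts and no test. How the 5p counts divide between the hairpins is not given by these ratios, since arms differ in how much of each is kept.

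**Figure D1:**
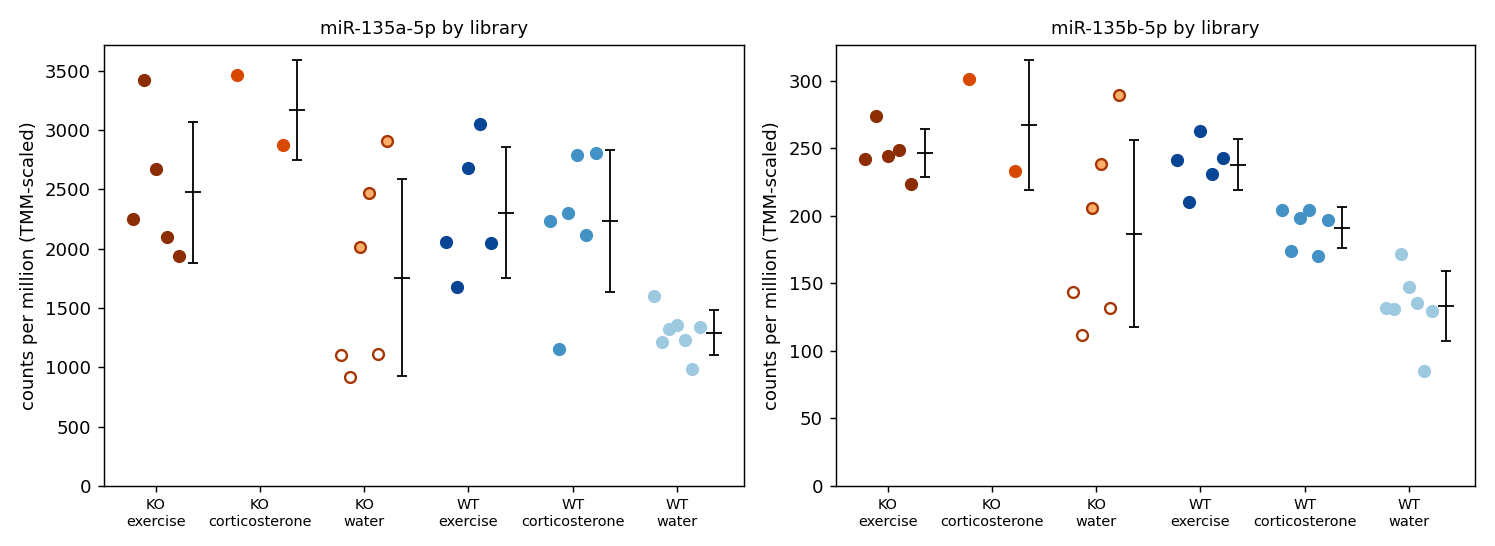
CPM (TMM-scaled, linear axis from 0) of miR-135a-5p on the left and miR-135b-5p on the right, 1 point per library, with the mean ± SD of each of 6 groups beside the points. Filled KO-water points are the 3 libraries of the deposited genotype table (2016 to 2904 CPM for miR-135a-5p) and open ones the 3 outside it (917 to 1116 CPM).

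MiR-135a-5p was lowest in WT-water and highest in KO-corticosterone by group mean. It averaged 2476 ± 595 CPM in KO-exercise (SD, n = 5), 3169 ± 418 CPM in KO-corticosterone (SD, n = 2) and 1755 ± 829.2 CPM in KO-water (SD, n = 6). In wild types it averaged 2302 ± 551 CPM after exercise (SD, n = 5), 2233 ± 601 CPM after corticosterone (SD, n = 6) and 1292 ± 186 CPM with water (SD, n = 7). The spread relative to the mean was 14.4% in WT-water and 47.2% in KO-water, the narrowest and the widest among groups of 5 or more. MiR-135b-5p followed the same order of group means: KO-corticosterone at 267 ± 48.0 CPM, KO-exercise at 246 ± 17.9 CPM, WT-exercise at 238 ± 19.0 CPM, WT-corticosterone at 191 ± 15.3 CPM, KO-water at 187 ± 69.1 CPM and WT-water at 133 ± 25.9 CPM. In a joint fit of all 6 groups, KO-water taken whole, with edgeR's quasi-likelihood test, no pair of neighbours in this order differed at an adjusted p below 0.05, for either arm. The nearest to it was KO-water over WT-water for miR-135b-5p, with an adjusted p of 0.0581.

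Both guide arms rose in wild-type hippocampi after exercise. MiR-135a-5p had 2057, 1680, 2679, 3051 and 2044 CPM in the 5 WT-exercise libraries, against a lowest of 986, a median of 1320 and a highest of 1604 CPM in the 7 WT-water libraries. MiR-135b-5p had 241, 210, 262, 231 and 243 CPM in WT-exercise, against 85.0, 131.6 and 171.4 CPM as lowest, median and highest in WT-water. For both arms all 5 exercised mice lay above all 7 water mice. Groups were free of overlap, in either direction, for 10.3% of the microRNAs tested in this comparison. The log2 fold change was 0.87 ± 0.17 (SE) for miR-135a-5p, a 1.82-fold rise, and 0.86 ± 0.16 for miR-135b-5p, a 1.82-fold rise, with adjusted p of 0.00393 and 0.00275 by edgeR. Of all 553 microRNAs tested, 32.5% were called at an adjusted p below 0.05, so the calls of miR-135a-5p and miR-135b-5p stand among many: 110 microRNAs were called higher and 70 lower. Without scaling factors these were 78 and 85, and the median over all tested microRNAs was -0.07 log2 units in place of 0.04. Both arms were called under each scaling tried. Within the letter-G libraries (3 against 5) the log2 fold changes were 0.71 and 0.77, with adjusted p of 0.136 and 0.0863, and within the letter-H libraries (2 against 2) they were 1.21 and 1.22, with adjusted p of 0.0192 and 0.0189. Over the 12 other settings tried, adjusted p ran up to 0.136 for miR-135a-5p, from 6.44e-05, and up to 0.0863 for miR-135b-5p, from 1.26e-05.

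Both guide arms also rose in wild types after corticosterone. MiR-135a-5p had a lowest of 1157, a median of 2267 and a highest of 2804 CPM in the 6 WT-corticosterone libraries, beside the 986, 1320 and 1604 CPM of WT-water. MiR-135b-5p had 170, 197 and 204 CPM as lowest, median and highest in WT-corticosterone, beside 85.0, 131.6 and 171.4 CPM in WT-water. In each case 5 of the 6 treated mice exceeded every water mouse. The exception for miR-135a-5p was replicate 2 at 1157 CPM, inside the water range, and for miR-135b-5p it was replicate 5 at 170 CPM. The rise was 0.86 ± 0.19 log2 units (SE) for miR-135a-5p and 0.58 ± 0.15 for miR-135b-5p, with adjusted p of 0.00242 and 0.00597 by edgeR, and 41.9% of 547 microRNAs were called in this comparison. Of those, 136 were higher and 93 lower, while without scaling factors 224 were called and 101 of them were higher. For miR-135b-5p the call was lost when counts were scaled to miR-124-3p, at 0.45 log2 units. Within letter G the log2 fold changes were 0.64 for miR-135a-5p and 0.39 for miR-135b-5p (5 against 5, adjusted p of 0.0404 and 0.0522). Within letter H there was 1 treated library against 2, and the differences of 1.37 and 0.97 are given as values with no test. Adjusted p over the 11 other settings lay between 0.000174 and 0.0404 for miR-135a-5p and between 0.00206 and 0.0864 for miR-135b-5p. Both wild-type comparisons use the same 7 water mice and so are not independent.

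Markers of some other cells moved in the same wild-type comparisons. The summed level of 5 microglial and immune microRNAs was 2774 to 10900 CPM in WT-exercise and 2796 to 8339 CPM in WT-corticosterone, against 2436 to 3461 CPM in WT-water, and 3 and 4 of the 5 were called higher (19.9% and 24.9% of all microRNAs were). The sum of 4 oligodendrocyte microRNAs was 2171 to 6998 CPM in WT-exercise and 2202 to 6952 CPM in WT-corticosterone, against 5860 to 7639 CPM in WT-water, with 1 of the 4, miR-338-3p, called lower in each (12.7% and 17% of all were). Of 4 vessel microRNAs, both arms of miR-126a were called higher in each comparison, and the sum was 14810 to 24500, 13890 to 20900 and 12600 to 19060 CPM in the same order of groups. The sum of 3 red blood cell microRNAs was 455 to 1862, 477 to 1198 and 1154 to 2416 CPM, with miR-451a called lower in both and miR-486a-5p called higher after corticosterone. The median log2 fold change of the red blood cell list was 0.11 after exercise and -0.07 after corticosterone. No member of these 4 lists was at 0 throughout. Of 5 choroid plexus and ciliated cell microRNAs, miR-449a-5p was called higher in each comparison. Their sum overlapped between groups, at 6477 to 10970, 7443 to 32130 and 6460 to 24650 CPM. No tested member of the epithelial list (3 tested) or the hindbrain list (1 tested) was called. The neuronal sum overlapped between all groups, at 370400 to 461500, 354400 to 458000 and 347200 to 437800 CPM, and of its 6 members 1 was called higher and 1 lower after exercise, and 2 higher and 1 lower after corticosterone. The part of these cells in the rise of miR-135a-5p and miR-135b-5p was not tested.

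In knockouts neither guide arm was called after either treatment by edgeR with all 6 KO-water libraries and no covariate. MiR-135a-5p had 2251, 3421, 2673, 2098 and 1935 CPM in KO-exercise, against 917, 1566 and 2904 CPM as lowest, median and highest in KO-water. MiR-135b-5p had 242, 274, 244, 249 and 224 CPM in KO-exercise, against 112, 175 and 289 CPM in KO-water. The exercised knockouts lay close together for miR-135b-5p, and the KO-water libraries enclosed all 5 of them. The log2 fold changes were 0.53 ± 0.31 (SE) and 0.44 ± 0.25, with adjusted p of 0.430 and 0.417 by edgeR, where 4.02% of 523 microRNAs were called. In KO-corticosterone the values were 3465 and 2874 CPM for miR-135a-5p and 301 and 233 CPM for miR-135b-5p. One of these libraries lay above all of KO-water for each arm. The differences from KO-water were 0.82 ± 0.46 and 0.49 ± 0.41 log2 units (adjusted p of 0.770 and 0.851 by edgeR), where 0.521% of 576 microRNAs were called. All KO-corticosterone libraries have code letter H while 4 of the 6 KO-water libraries have G, so treatment and letter are partly confounded.

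These values depended on which KO-water libraries were used. MiR-135a-5p had 2016, 2472 and 2904 CPM in the 3 KO-water libraries of the genotype table, and 1105, 917 and 1116 CPM in the 3 outside it. MiR-135b-5p had 206, 238 and 289 CPM in the libraries of the table and 144, 112 and 131.9 CPM in those outside it. The sets did not overlap for either arm, as was the case in either direction for 63.7% of 545 microRNAs, and they were taken from the table's columns and not from these values. Exercised knockouts differed from the 3 libraries outside the table by 1.24 ± 0.21 log2 units for miR-135a-5p and 0.93 ± 0.17 for miR-135b-5p (adjusted p of 0.00400 and 0.00506 by edgeR), where 21.7% of microRNAs were called. Against the 3 libraries in the table the differences were -0.060 and -0.052 (adjusted p of 0.827 and 0.823), where 32.8% were called. KO-corticosterone exceeded the libraries outside the table by 1.59 ± 0.20 and 1.04 ± 0.22 log2 units (adjusted p of 0.00961 and 0.0320), where 7.08% were called. Against those in the table the differences were 0.35 and 0.11 (adjusted p of 0.213 and 0.754), where 19.2% were called. Over the 14 other settings of KO-exercise over KO-water, adjusted p lay between 0.00224 and 0.997 for miR-135a-5p and between 0.00506 and 0.997 for miR-135b-5p, each called in 2. Over the 13 of KO-corticosterone over KO-water it lay between 2.98e-05 and 0.999 for miR-135a-5p, called in 3, and between 0.0201 and 0.999 for miR-135b-5p, called in 2. The lowest of each came from a block on the replicate number. That fit rests on replicates 1 and 2 of both groups, and so only on KO-water libraries outside the table.

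Between genotypes under water, neither guide arm was called over all libraries. KO-water exceeded WT-water by 0.48 ± 0.27 log2 units for miR-135a-5p and 0.52 ± 0.24 for miR-135b-5p (SE), with adjusted p of 0.227 and 0.150. The share of microRNAs called by edgeR was 0% of 545, with 179 at an unadjusted p below 0.05, while DESeq2 called 101, neither miR-135 arm among them. With the 3 KO-water libraries of the genotype table the values were 1.11 ± 0.14 and 1.06 ± 0.18, with adjusted p of 1.46e-05 and 0.000152, where 60.9% of 581 microRNAs were called. With the 3 libraries outside it they were -0.32 ± 0.15 and -0.056 ± 0.18, with adjusted p of 0.877 and 0.964, where 0% of 587 were called by edgeR and 24 had an unadjusted p below 0.05. The guide arms were thus called higher in the knockout libraries listed in the table, and not in the other 3 or in all 6. Adjusted p over the 14 other settings ran between 1.46e-05 and 0.877 for miR-135a-5p and between 0.000152 and 0.964 for miR-135b-5p.

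**Figure D2:**
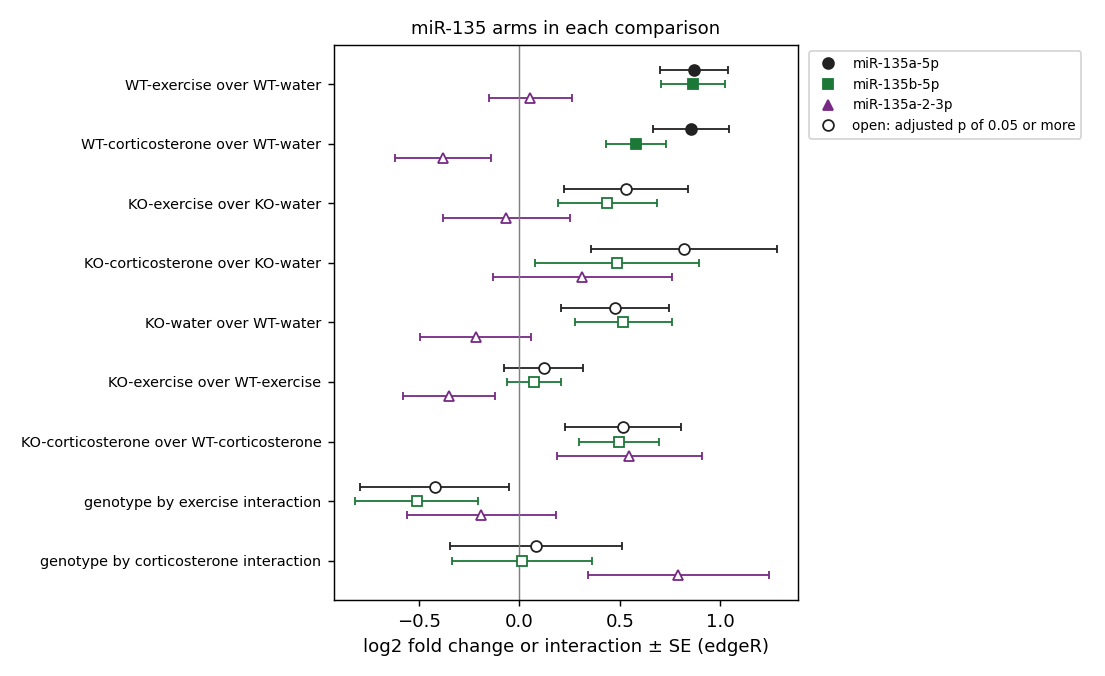
Log2 fold change or interaction ± SE (edgeR, horizontal axis) of miR-135a-5p, miR-135b-5p and miR-135a-2-3p in 9 comparisons. Filled symbols mark an adjusted p below 0.05, which both 5p arms reach in the WT-exercise and WT-corticosterone comparisons (0.58 to 0.87 log2 units), and which miR-135a-2-3p does not reach in any.

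After exercise the genotypes did not differ by more than their spread. KO-exercise differed from WT-exercise by 0.12 ± 0.20 log2 units for miR-135a-5p and 0.07 ± 0.13 for miR-135b-5p, with adjusted p of 0.999 for both by edgeR. The groups overlapped, with 1935 to 3421 CPM in KO-exercise against 1680 to 3051 CPM in WT-exercise for miR-135a-5p. EdgeR and DESeq2 each called 0 of 517 microRNAs there (0%), with 5 at an unadjusted p below 0.05 in edgeR. Both KO-corticosterone libraries lay above all 6 WT-corticosterone libraries for both guide arms, as was the case, in either direction, for 1.99% of the microRNAs tested. The differences were 0.52 ± 0.29 and 0.50 ± 0.20 log2 units. They were not called (0 of 552 by edgeR or DESeq2, 0%, with 9 at an unadjusted p below 0.05), and all libraries of KO-corticosterone have code letter H while 5 of 6 of WT-corticosterone have G.

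The response to treatment was not shown to differ by genotype over all libraries. The genotype-by-exercise interaction was -0.42 ± 0.37 log2 units for miR-135a-5p and -0.51 ± 0.31 for miR-135b-5p (adjusted p of 0.571 and 0.372 by edgeR), and the genotype-by-corticosterone interaction was 0.08 ± 0.43 and 0.01 ± 0.35. The share called was 0% in both, with 101 and 65 microRNAs at an unadjusted p below 0.05, and DESeq2 called 4 and 0. With the KO-water libraries of the genotype table the exercise interaction was -0.86 ± 0.27 and -0.86 ± 0.23 (adjusted p of 0.0172 and 0.00738), where 42.3% of microRNAs were called. With those outside it the values were 0.40 and 0.091, where 0% were called by edgeR and 18 had an unadjusted p below 0.05. The corticosterone interaction was -0.41 and -0.38 with the table's libraries (34% called, neither arm among them) and 0.78 and 0.50 with the others (0% called by edgeR, 13 at an unadjusted p below 0.05). All of its KO-corticosterone libraries have code letter H. Over the 14 other settings of the exercise interaction, adjusted p lay between 0.0172 and 0.995 for miR-135a-5p and between 0.00738 and 0.995 for miR-135b-5p.

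The passenger arm miR-135a-2-3p was not called in any comparison. It had 19.9, 16.4, 19.1, 18.9 and 14.8 CPM in WT-exercise, against 9.51, 18.3 and 21.5 CPM as lowest, median and highest in WT-water. In WT-corticosterone it had 7.01, 13.5 and 18.8 CPM. These groups overlapped, and the log2 differences from WT-water were 0.06 ± 0.21 and -0.38 ± 0.24 (SE), with adjusted p of 0.842 and 0.211 by edgeR. Its level was 13.7 ± 3.56 CPM in KO-exercise, 18.7 ± 4.54 CPM in KO-corticosterone and 14.6 ± 5.80 CPM in KO-water (SD), groups that overlapped, with KO-water means of 15.3 CPM in the libraries of the genotype table and 13.8 CPM in those outside it. At 14 to 85 counts per library this arm is less precisely measured than the guides, with standard errors of 0.21 and 0.24 log2 units in the wild-type comparisons, against 0.15 to 0.19 for the 5p arms.

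Relative to its guide, miR-135a-2-3p averaged less in both treated wild-type groups than in WT-water. This ratio is taken within each library, so no scaling changes it, and it was chosen after its values were seen. It had 9.65, 9.78, 7.12, 6.20 and 7.24 counts per 1000 counts of miR-135a-5p in WT-exercise, 3.32 to 8.52 in WT-corticosterone and 9.64 to 15.1 in WT-water. All 6 corticosterone mice lay below all 7 water mice, as was the case in either direction for 16.9% of 136 hairpins with both arms measured. Exercise and water overlapped narrowly, and 12.5% of hairpins did not. The denominator, miR-135a-5p, was itself called higher in both treated wild-type groups, so the lower ratio is not separate from that rise. The miR-135a-5p entry also pools both hairpins, so this is not the arm ratio of a single hairpin. In knockouts the ratio was 4.02 to 8.58 in KO-exercise, 4.47 and 7.63 in KO-corticosterone, and 4.90 to 19.1 in KO-water. Within KO-water it was 4.90, 5.58 and 7.65 in the libraries of the genotype table and 9.72, 10.3 and 19.1 in those outside it. Within KO-water the 3 libraries low in miR-135a-5p were the ones with the higher ratio, of which miR-135a-5p is the denominator.

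**Figure D3:**
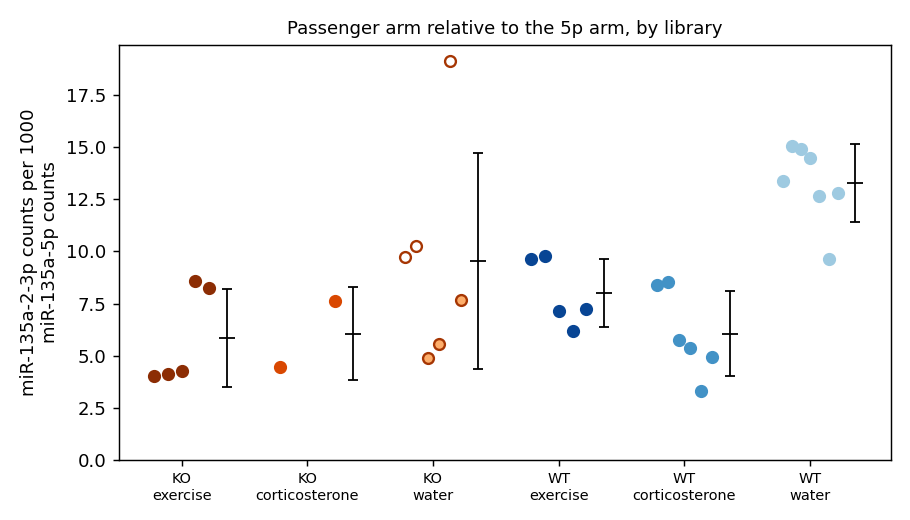
Counts of miR-135a-2-3p per 1000 counts of miR-135a-5p (linear axis from 0), 1 point per library, with the mean ± SD of each of 6 groups. KO-water points are filled for the libraries of the genotype table. WT-exercise runs from 6.20 to 9.78 and WT-corticosterone from 3.32 to 8.52, below most or all of WT-water (9.64 to 15.1).

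Levels of the guide arms followed each other from mouse to mouse. The sequence of miR-135b-5p was not matched, and whether reads were misassigned between it and miR-135a-5p was not tested. MiR-135b-5p was 10.2 ± 1.97 counts per 100 counts of miR-135a-5p over all 31 libraries (SD), with group means of 10.3 in KO-exercise, 8.40 in KO-corticosterone, 11.1 in KO-water, 10.7 in WT-exercise, 9.19 in WT-corticosterone and 10.3 in WT-water. Within KO-water it averaged 9.93 in the libraries of the genotype table and 12.4 in those outside it. Among 463 microRNAs averaging at least 10 CPM, miR-135b-5p had the log2 levels most like those of miR-135a-5p over the 31 libraries, with a Pearson r of 0.874. The next were miR-28a-3p (0.862), miR-194-5p (0.859), miR-16-5p (0.851) and miR-152-3p (0.849). The most opposite were miR-339-5p (-0.880), miR-22-5p (-0.864), miR-127-5p (-0.863), miR-22-3p (-0.862) and miR-500-3p (-0.856). The passenger miR-135a-2-3p had an r of 0.176 with its own guide. These values mix differences between groups with those within them, and the libraries share depth and composition effects, so they describe the libraries only. With group means removed, miR-194-5p (0.840), miR-421-3p (0.798), miR-152-3p (0.797), miR-383-5p (0.788) and miR-135b-5p (0.787) were the most alike.

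Much of the mouse-to-mouse spread of miR-135a-5p followed a pattern shared by many microRNAs. The first principal component of the deviations from group means over 624 microRNAs, the miR-135 arms left out, held 38.8% of their variance. The deviations of miR-135a-5p had an r of 0.764 with it over 31 libraries, those of miR-135b-5p 0.596 and those of miR-135a-2-3p 0.232. KO-water libraries of the genotype table scored 8.56, 14.2 and 12.5 on it, and those outside it -11.9, -12.1 and -11.4. The WT-water libraries all lay near 0, between -1.33 and 0.78, and WT-exercise libraries ran from -13.8 to 12.45. The KO-water libraries thus sat at both ends of an axis on which WT-water hardly varied. With this component as a covariate, which was derived from the same libraries, KO-exercise exceeded KO-water by 0.66 ± 0.14 log2 units for miR-135a-5p and 0.52 ± 0.12 for miR-135b-5p (adjusted p of 0.00224 and 0.00545 by edgeR, 24.3% called). KO-corticosterone then exceeded KO-water by 1.00 and 0.60 log2 units (adjusted p of 0.00983 and 0.101, 5.21% called) and KO-water exceeded WT-water by 0.33 and 0.43 (adjusted p of 0.0319 and 0.0224, 47.2% called). The wild-type rises of both arms stayed called in that fit after exercise (51% of microRNAs called) and corticosterone (51.4%). Scores on this component average 0 within each group, yet the covariate also moved some fitted group differences. For miR-135a-5p, KO-water over WT-water was 0.48 log2 units without it and 0.33 with it. KO-exercise over KO-water was 0.53 without it and 0.66 with it. The covariate also lowers the spread within groups, so a call kept or gained in that fit is no separate support.

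**Figure D4:**
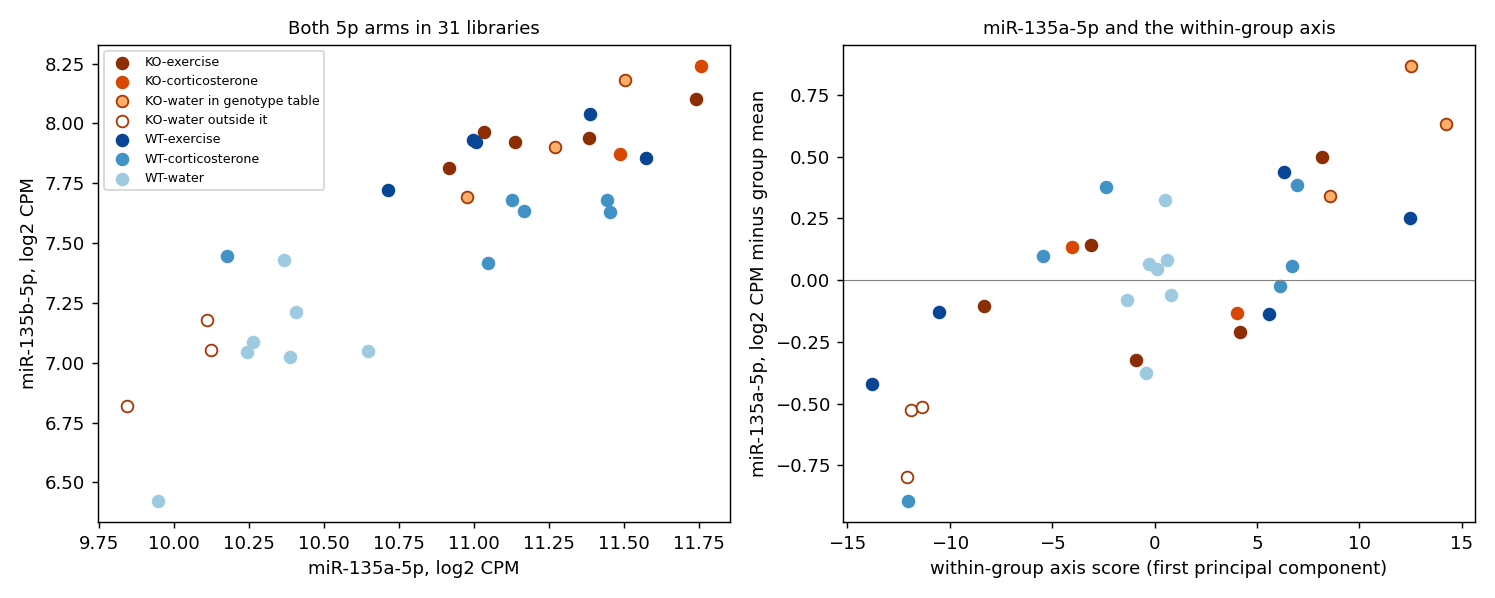
Left, log2 CPM of miR-135b-5p against that of miR-135a-5p in 31 libraries, coloured by group (r = 0.874). Right, deviation of miR-135a-5p from its group mean (log2 CPM) against the library's score on the first within-group principal component (r = 0.764), with the KO-water libraries at both ends and WT-water near 0.

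Other microRNAs linked to serotonin genes were called at shares near those of all microRNAs in the wild-type comparisons, 4 of 14 after exercise (32.5% of all) and 6 of 14 after corticosterone (41.9% of all). Of 15 microRNAs reported to act on the transporter or on serotonin receptors, or encoded within Htr2c, 14 were tested in the wild-type comparisons. After exercise 3 were higher, namely miR-16-5p (1.60 log2 units), miR-26a-5p (0.93) and miR-195a-5p (0.91), where 19.9% of all microRNAs were called higher, and 1 was lower, miR-1298-5p from Htr2c (-3.13), where 12.7% were called lower. After corticosterone 5 were higher, miR-764-5p from Htr2c (1.65), miR-16-5p (1.41), miR-26a-5p (1.00), miR-195a-5p (0.78) and miR-34a-5p (0.34), beside 24.9% of all microRNAs, and miR-22-3p was lower (-1.13), beside 17% of all. The median log2 fold change of the list was -0.07 after exercise, against 0.04 for all microRNAs, and 0.49 after corticosterone, against 0.06. MiR-16-5p, which is known to act on the transporter in mouse raphe neurons, was the member of this list most like miR-135a-5p over libraries (r of 0.851). MiR-22-3p, also of this list, was among the 5 microRNAs most opposite to miR-135a-5p (r of -0.862). In the comparisons within knockouts and between genotypes edgeR called no member of the list over all libraries, where at most 4.02% of all microRNAs were called. With the KO-water libraries of the genotype table, 9 of 14 were called in KO-water over WT-water (60.9% of all), 5 of 14 in KO-exercise over KO-water (32.8%), 2 of 14 in KO-corticosterone over KO-water (19.2%), 4 of 14 in the exercise interaction (42.3%) and 5 of 15 in the corticosterone interaction (34%). With the libraries outside the table, 6 of 14 were called in KO-exercise over KO-water (21.7%) and 2 of 14 in KO-corticosterone over KO-water (7.08%), and none in the other 3. The only annotated hairpin within 50 kb of a miR-135 hairpin was Mirlet7g, 24.6 kb from Mir135a-1. Its guide let-7g-5p (11530 CPM) was not called in any comparison, with all KO-water libraries or either set. Its passenger let-7g-3p was called lower in KO-water over WT-water with the libraries of the genotype table, and in WT-exercise (-0.55 ± 0.20 log2 units, adjusted p of 0.0465 by edgeR), opposite to miR-135a-5p.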

How the data were processed

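The authors deposited 5 tables of whole-number counts per mature microRNA, 1 per pair of groups. Per the labels' protocols, 3 ug of total RNA per mouse was enriched for small RNA, prepared with the Ion Total RNA-Seq Kit and read on an Ion Torrent S5. The submitters' processing notes name the build GRCm38 (mm10) and the tools limma 3.54.1, featureCounts, Subread, BWA and cutadapt 2.3, without role or order. The sources used here do not give whether counting used strand, or how reads that fit both miR-135a hairpins were assigned. Libraries that stand in several tables had identical counts, and 391 of the 1966 entries were at 0 everywhere. Every column that held values was matched to a label.

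Counts were fitted in R 4.3.3 with edgeR 4.0.16 (filterByExpr by group, TMM, estimateDisp, robust glmQLFit, quasi-likelihood F test) on the libraries of the groups compared, and on 4 groups for interactions. Benjamini-Hochberg adjustment ran over all microRNAs tested, and calls were made at an adjusted p under 0.05. SE was derived from the F statistic. The fit was tested on simulated counts of independent libraries, for WT-exercise and WT-water only. That test did not cover the knockout, interaction or covariate fits. CPM values use TMM-scaled library sizes over all 31 libraries, and log2 CPM a prior count of 2. Counting error only is covered by the interval on arm shares. P-values are from tests of a difference judged against the spread between libraries. Alternatives were DESeq2 1.42.0, its size factors, no scaling factors, other filters, the code letter, a replicate block, the within-group component, a joint fit, subsets of KO-water and each library left out. Scaling to miR-124-3p and the arm ratio were chosen after seeing the data.

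Named microRNAs were the miR-135 arms, the 5 most and 5 least like miR-135a-5p by Pearson r over libraries among those averaging 10 CPM, the 5 most alike after removing group means, called members of the serotonin list, microRNAs with a hairpin within 50 kb, and the most abundant one. Members of the cell type marker lists are also named. The members, lists and tests were chosen with earlier results of these data known. The deposited genotype table held 3 of the 6 KO-water libraries, and all 6 were used here by their labels.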

Additional observations from a re-analysis of the deposited data

Results flagged for a closer look

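In WT-corticosterone replicate 2, miR-135b-5p had 15.004 counts per 100 counts of miR-135a-5p, the highest of the 31 libraries and far from the other 5 of its group, which had 7.03 to 9.12. The gap to the nearest library was large against the range of the group by Dixon's criterion. In that library miR-135a-5p was 1157 CPM, the lowest of its group, while miR-135b-5p was 173.6 CPM, near the group's low end of 170 CPM, and its score on the within-group component was -12.0. In all, 25 groups of values were checked in this way, and chance flags about 5% of groups. Without this library the corticosterone rise of miR-135a-5p in wild types was 0.94 log2 units.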

How the results depend on the processing

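The rise of miR-135a-5p and miR-135b-5p in wild types held its direction in every setting run. It stayed called in all 12 fits (exercise) and 13 fits (corticosterone) that left out 1 library, with 0.73 to 0.98 and 0.78 to 0.94 log2 units after exercise and 0.71 to 0.94 and 0.42 to 0.59 after corticosterone. It lost its call within letter G for both arms after exercise (0.71 and 0.77) and for miR-135b-5p after corticosterone (0.39), and with counts scaled to miR-124-3p for miR-135b-5p after corticosterone (0.45). These subsets hold fewer samples, and for the scaling the cause was not tested. Letter H holds 1 WT-corticosterone library, so its values there (0.97 for miR-135b-5p) carry no test.

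Values that rest on KO-water changed most, in the order miR-135a-5p and miR-135b-5p. With the KO-water libraries of the genotype table, KO-exercise over KO-water was -0.060 and -0.052, KO-water over WT-water 1.11 and 1.06, the exercise interaction -0.86 and -0.86 and the corticosterone interaction -0.41 and -0.38. With those outside it, KO-exercise over KO-water was 1.24 and 0.93, KO-corticosterone over KO-water 1.59 and 1.04, KO-water over WT-water -0.32 and -0.056 and the exercise interaction 0.40 and 0.091. With the within-group component as a covariate, KO-exercise over KO-water was 0.66 and 0.52, KO-water over WT-water 0.33 and 0.43, all called, and KO-corticosterone over KO-water was 1.00 for miR-135a-5p, also called. That covariate moved some fitted group differences and lowers the spread within groups, so these calls are no separate support. For miR-135a-5p, letter H alone gave -0.044 for KO-exercise over KO-water and -0.32 for KO-exercise over WT-exercise, and letter G alone 0.18 for the exercise interaction. The corticosterone interaction, near 0, turned negative for miR-135a-5p with the letter as covariate (-0.016) and within letter H (-0.79), and for miR-135b-5p within letter H (-0.71), with DESeq2 (-0.022), its size factors (-0.028) and the joint fit (-0.0033).

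Same-numbered libraries did not deviate together in every pair of any comparison (r between -0.54 and 0.53), so the numbers were not taken as pairs. With the replicate number as a block, KO-corticosterone over KO-water was 1.69 for miR-135a-5p and 1.105 for miR-135b-5p, both called. Only replicates 1 and 2 hold both groups, so these values set KO-corticosterone against KO-water replicates 1 and 2 alone. Those KO-water libraries are outside the genotype table. The block changed no other call of these arms, and turned miR-135a-2-3p to -0.051 in WT-exercise and 0.12 in KO-exercise.

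When 1 library was left out, KO-exercise over WT-exercise was -0.015 to 0.24 for miR-135a-5p, and the corticosterone interaction was -0.12 to 0.28 for miR-135a-5p and -0.23 to 0.18 for miR-135b-5p. KO-water over WT-water was 0.39 to 0.70 for miR-135b-5p, called in 1 of 13 fits, without KO-water replicate 2. MiR-135a-2-3p was -0.050 to 0.12 in WT-exercise and -0.21 to 0.098 in KO-exercise over water.

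MiR-135a-2-3p was not called under any setting and changed sign often. Over WT-water, WT-exercise was -0.052 without scaling factors, -0.0065 without a filter, -0.0098 within letter G and -0.0096 scaled to miR-124-3p. Within letter G, KO-exercise over KO-water was 0.11 and the exercise interaction 0.17, which was 0.025 without scaling factors. Within letter H, WT-corticosterone over WT-water was 0.13, KO-corticosterone over KO-water -0.29, KO-water over WT-water 0.79, KO-exercise over WT-exercise 0.015 and the corticosterone interaction -0.42. With the letter as covariate KO-corticosterone over KO-water was -0.30, and with the KO-water libraries of the genotype table KO-water over WT-water was 0.010.

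Counts of all microRNAs called ranged, over settings other than leaving out a library, from 10 to 282 in WT-exercise (180 as reported), 127 to 281 in WT-corticosterone (229), and 1 to 177 in KO-exercise (21), each over water. In KO-corticosterone over KO-water (3) they fell to 0 within letter H and rose by up to 101. They ranged from 0 to 354 in KO-water over WT-water, 0 to 252 and 0 to 213 in the exercise and corticosterone interactions (0 as reported in each), and were 0 throughout in both comparisons of treated genotypes. With 1 library left out the count in WT-exercise fell by at most 77, without WT-exercise replicate 5 (by over 1.5 times also without replicates 3 or 4), and rose by at most 94, without WT-exercise replicate 2. It was 13 to 29 in KO-exercise over KO-water, lowest without KO-exercise replicate 4. In KO-water over WT-water it was 161 without KO-water replicate 5, 118 without replicate 1 and between these and 0 without replicate 2, the libraries outside the genotype table, and 0 when any other library was left out. MiR-135a-1-3p and miR-135b-3p, with at most 8 and 6 counts per library, are below what this depth can test.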

Other observations

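Mir1251, the hairpin nearest to Mir135a-2, lies 65.0 kb from it, beyond the distance set for neighbours. Its miR-1251-5p had at most 10 counts in any library and 32 counts in total over the 7 WT-water libraries, so the neighbourhood of Mir135a-2 offers no well-counted microRNA to set beside it. MiR-135a-2-3p itself was most opposite in level to miR-744-3p, with a Pearson r of -0.716 over 31 libraries, and no microRNA of the 463 compared reached an r above 0.458 with it. Those microRNAs were looked up after their values were seen.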
